A study of Mus musculus with 8 samples.

Results

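The replication-dependent histone genes encode the bulk of the core and linker histones and stand in clusters along the chromosomes. They were taken as every gene of the count table whose symbol in GENCODE M21 (mm10) begins with Hist1h, Hist2h, Hist3h or Hist4h. The table held 59 of them among 29079 genes, of 70 annotated under these symbols, and the other 11 had no row. By histone type there were 6 genes for the linker histone H1, 15 for H2A, 15 for H2B, 10 for H3 and 13 for H4. Of the 59, 57 were annotated as protein coding and 2, Hist3h2bb-ps and Hist1h2aj, as pseudogenes. On mm10 the Hist1 genes lay in a pair of stretches of chromosome 13, with 22 genes between 21715763 and 22043676 and 28 between 23531050 and 23764406. Hist2 held 5 genes on chromosome 3 (96219865 to 96263311), Hist3 held 3 on chromosome 11 (58948920 to 58956830), and Hist4h4 stood alone on chromosome 6.

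RNA was sequenced from MC38, a tumour cell line derived from the mouse colon, which the labels call epithelial. Cells carrying a CRISPR control (CRISPR-Ctrl, labelled WT) and cells targeted at Piezo2, a mechanically gated ion channel, with the guide Piezo2-gRNA1 (labelled Piezo2-KO and here KO) were each left unirradiated or given 30 Gy of X-rays in a single fraction. RNA was extracted 60 hours later, and each of the 4 groups had 2 libraries. The sources used here do not say whether the libraries of a group came from separate cultures or whether each line is 1 clone, so every p-value measures a spread between libraries that may be technical.

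When a cell copies its DNA it must package the new strands at once, and these genes are transcribed in S phase to supply the histones. Their mRNAs are unusual in that most end in a short conserved stem-loop, which the stem-loop binding protein Slbp holds, in place of a poly(A) tail, and they are degraded when replication stops. Libraries that select polyadenylated RNA therefore hold few of their reads, apart from members that are also known to give polyadenylated transcripts. The labels name total RNA as the input and do not state whether polyadenylated RNA was selected here.

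The variants of the stem-loop are shown here because they divide the H4 genes from the other types. A match to the histone stem-loop motif (16 bases) within 100 bases of the stop codon was present in the annotated transcripts of 38 of the 59 genes, and in 36 of the 42 whose annotation holds at least 60 bases of 3′ UTR. Among 20489 other coding genes with a 3′ UTR of at least 60 bases 5 had a match, which is 0.0244%. The matches began 21 to 54 bases after the stop codon (median 31). The capitals mark the stem-loop in 1 member for each of the 6 variants, 5′ to 3′ on the transcript strand, from GENCODE M21 transcripts on mm10:
Hist1h1c: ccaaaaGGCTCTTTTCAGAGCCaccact
Hist1h3c: aaaaaaGGCTCTTTTAAGAGCCacctaa
Hist2h2ac: caaaaaGGCTCTTTTTAGAGCCaccaaa
Hist1h4d: accaaaGGCCCTTTTCAGGGCCactacc
Hist1h4i: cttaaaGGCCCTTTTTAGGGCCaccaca
Hist1h4j: cctaaaGGTCCTTTTCAGGACCaccaca
The variant of Hist1h1c occurred in 20 members, all of H1, H2A, H2B or H3 type, that of Hist1h3c in 6 and that of Hist2h2ac in 1. The variants of Hist1h4d, Hist1h4i and Hist1h4j were found in 7, 2 and 2 members, all of them H4 genes.

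A poly(A) signal (AATAAA or ATTAAA) within the last 40 annotated bases was found in 16 of the 59 genes (27.1%). All 16 were among the 42 with at least 60 bases of annotated 3′ UTR (38.1%). Of 20489 other coding genes with such a 3′ UTR 79.1% had the signal. Hist1h1c and Hist1h4i had both a stem-loop match and such a signal, and their annotated transcripts ran on for 840 and 330 bases past the stem-loop. Hist2h2be had the signal and no stem-loop match in its annotated transcript, and Hist1h2bc had neither. For 12 members, Hist1h1b, Hist1h3i and Hist1h4k among them, the annotation ends within 2 bases of the stop codon, so neither feature could be looked for there.

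The reads were unevenly spread over the members. In all, the 59 genes took 15052 reads over the 8 libraries, and 12624 of these (83.9%) fell in Hist1h1c, Hist1h2bc, Hist2h2be and Hist1h4i. Per kb of exon the mean over the 8 libraries was 31.2 counts per M of total counts (CPM) for Hist1h1c, 27.8 for Hist1h2bc, 5.87 for Hist2h2be, 5.48 for Hist1h4i and 4.55 for Hist1h4k, and 1.57 or less for each of the others. Only 17 members passed the filter on low counts and were tested. The other 42 had between 1 and 72 reads over all libraries (median 16), and 9 of them had at most 3.

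Neighbouring genes could differ widely in reads. In 12 places an H2A and an H2B gene are annotated head to head with their starts under 500 bases apart. Hist1h2bc took 4084 reads and its partner Hist1h2ac 21, with 250 bases between the starts, and Hist2h2be took 1920 and its partner Hist2h2ac 13, with 238 bases between them. The promoter windows of both H2A partners, which reach across to the start of the H2B gene, are printed from RefSeq's table (GRCm38.p6, 250 bases before to 50 after the start), with a TATA box (TATAAA) and an octamer (ATTTGCAT, here on the other strand as ATGCAAAT) in capitals:
Hist1h2ac, chr13:23683910-23684209, minus strand: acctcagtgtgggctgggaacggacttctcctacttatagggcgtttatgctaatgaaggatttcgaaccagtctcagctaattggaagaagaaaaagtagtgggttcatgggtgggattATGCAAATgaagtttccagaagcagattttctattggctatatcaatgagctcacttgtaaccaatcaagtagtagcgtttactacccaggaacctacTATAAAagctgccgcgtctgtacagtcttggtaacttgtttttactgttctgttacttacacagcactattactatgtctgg
Hist2h2ac, chr3:96220831-96221130, minus strand: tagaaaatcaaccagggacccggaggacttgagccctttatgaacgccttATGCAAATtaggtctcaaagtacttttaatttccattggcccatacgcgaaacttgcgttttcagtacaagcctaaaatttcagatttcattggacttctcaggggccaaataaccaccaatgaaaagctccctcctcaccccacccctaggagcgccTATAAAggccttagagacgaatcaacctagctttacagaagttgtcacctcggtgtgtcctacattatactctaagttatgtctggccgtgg
A promoter window was found for 51 of the 59 members, and each motif was looked for on both strands. None of these motifs contains another. The octamer was present in 9 of the 51 (17.6%), 6 of them H2A and 3 of them H2B genes, against 1.74% of all 32851 promoters in the table. TATAAA (or TTTATA) was present in 62.7% of the members and 13.6% of all promoters. The letters CCAAT (or ATTGG) were present in all 39 members of H1, H2A, H2B and H3 type and in 3 of 12 H4 members, against 37.4% of all promoters. These are matches of letters and not measured binding.

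Total counts ran from 10971004 to 19887180 per library, so that a count of 0 allowed a level of up to 0.151 to 0.273 CPM (3 reads). These floors cover counting error only. Piezo2 itself had 0 and 0 reads in unirradiated WT, 3 and 9 in irradiated WT, 0 and 1 in unirradiated KO and 7 and 12 in irradiated KO, which does not check the label of either line. Of the epithelial markers Cdh1 stood between 38.1 and 79.3 CPM, Krt18 and Cldn4 had at most 2 reads in every library, and Epcam, Krt20 and Cdx2 had no row. Fibroblast markers, mostly Col1a2 and Col3a1, summed to 1120 to 1240 CPM in unirradiated WT, 1660 to 1840 in irradiated WT, 1550 to 1650 in unirradiated KO and 2630 to 2940 in irradiated KO. Macrophage markers, mostly Cd68, summed to 3.74 to 3.81, 38.3 to 40.3, 7.2 to 7.79 and 56.6 to 65.3 CPM in the same order, while C1qa, C1qb, Tyrobp, Adgre1 and Itgam had at most 2 reads in every library. T cell markers summed to at most 3.32 CPM, with Cd3e, Cd3d, Cd3g and Cd8a at no more than 2 reads. The part of these markers in the results was not tested, and in bulk libraries fewer cells of a kind and less RNA per cell cannot be told apart.

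Read together, the histone genes were lower after irradiation in both lines. Their summed level was 170 and 154 CPM in the WT libraries without irradiation and 67.7 and 59.2 after it. In KO it was 139 and 167 CPM without irradiation and 101 and 87.9 after it. The irradiated libraries lay below the unirradiated ones in each line, by a factor of 0.391 in WT and 0.618 in KO (ratio of group means, n = 2 libraries each). For the 4 genes with most reads the factor was 0.373 in WT and 0.698 in KO, and for the other 55 it was 0.519 and 0.317.

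**Figure D1:**
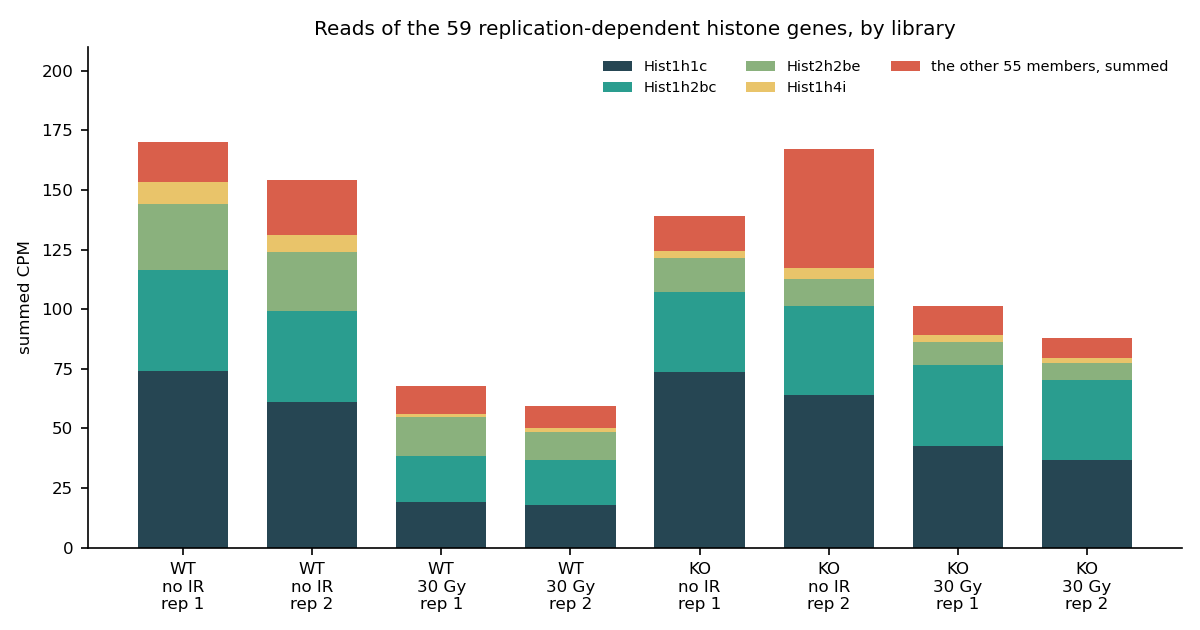
Summed CPM of the 59 replication-dependent histone genes in each of the 8 libraries, with the 4 genes with most reads drawn separately and the other 55 summed. The irradiated WT libraries are lowest at 67.7 and 59.2 CPM, and the other 55 genes stand at 49.7 CPM in replicate 2 of unirradiated KO and at 8.43 to 23.1 CPM in the other libraries.

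The other 55 genes summed to 16.9 and 23.1 CPM in unirradiated WT, 11.6 and 9.18 in irradiated WT, 14.7 and 49.7 in unirradiated KO and 12 and 8.43 in irradiated KO. A single library, replicate 2 of unirradiated KO, was thus 3.39 times its partner, whereas for the 4 genes with most reads the ratio between the same libraries was 0.941. It had the highest CPM of all 8 libraries for 26 of the 59 members, 8 of them tested and 18 not. How many of all genes were highest in it was not counted, so this count does not set the histone genes apart. The ratio of irradiated to unirradiated KO for the 55 genes was 0.317, and 0.696 without that library.

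The same library was the highest for 9 of the 14 RNAs without a poly(A) tail that had a row. For Rny1 and Rnu12 among them it led with 4 reads, at 0.201 CPM against 0.197 and 0.199 in the next library. Another library was highest for the other 5, Terc, Rnu1a1, Rnu2-10, Rnu5g and Rnu6. Rnu1a1, the U1 RNA, was higher in replicate 1 than in replicate 2 of every group, at 0.474 to 1 CPM against 0.197 to 0.654. Rn7sk and Rpph1 had most reads. Rn7sk, the 7SK RNA that holds back transcription elongation, had 0.119 and 9.85 CPM in unirradiated WT, 0.148 and 12.1 in irradiated WT, 0.911 and 56.1 in unirradiated KO and 1.39 and 10.2 in irradiated KO. Rpph1, the RNA of ribonuclease P, ran from 0.0593 to 1.33 CPM in the 4 replicate 1 libraries and reached 9.85, 8.25, 69.7 and 13.2 CPM in replicate 2 of the groups in the same order. Rn7sk and Rpph1 were thus higher in replicate 2 than in replicate 1 of every group. The 55 histone genes were higher in replicate 2 in both unirradiated groups, by 1.36 times in WT and 3.39 times in KO, and lower in it in both irradiated groups. Of the 14 RNAs 3 were tested and 0 were called in any comparison. With the replicate block 2 fell with irradiation in KO (all genes 29.6%) and 2 were higher in KO without irradiation (all genes 21.4%). The block also called 1 higher in KO after irradiation (all genes 25.2%) and 2 lower for the interaction (all genes 8.55%). The part of these RNAs in the histone values was not tested.

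**Figure D2:**
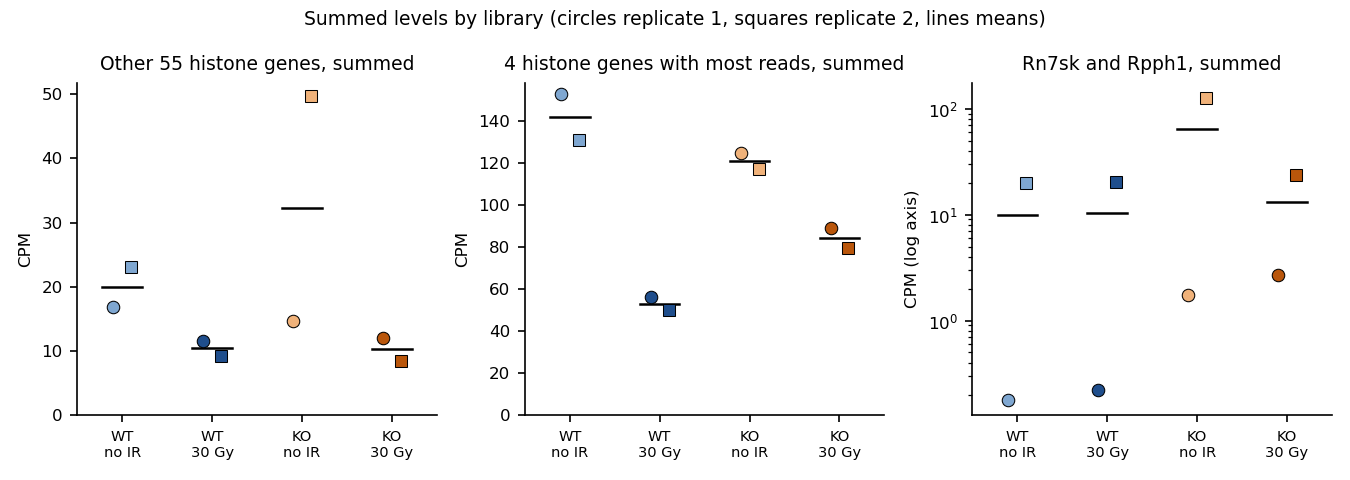
Summed CPM by library of the 55 histone genes outside the 4 with most reads, of those 4 genes, and of Rn7sk and Rpph1 together (log axis), with circles for replicate 1, squares for replicate 2 and lines for group means. Replicate 2 of unirradiated KO stands apart for the 55 genes (49.7 CPM) and for both RNAs, and not for the 4 genes (117 CPM against 125 in replicate 1).

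Irradiation of the control line was followed by lower levels of 5 histone genes. Of the 17 tested members 0 were called higher and 5 lower (edgeR adjusted p under 0.05), where 20.4% and 18.4% of all 14923 tested genes were called. The 5 were the linker histone gene Hist1h1c, the H2B genes Hist1h2bc and Hist2h2be, the H4 gene Hist1h4i and the H3 gene Hist1h3i. The median log2 change over the 17 was -1.53, with 16 below 0, beside a median of 0.03 over all tested genes. With the replicate number as a block 10 members were called lower and 0 higher (all genes: 29.9% and 30.6%), the further ones being Hist1h1b, Hist1h1d, Hist1h1e, Hist1h4k and Hist1h4n. Members that passed the filter only through a group where they were high had to differ, so these counts describe the tested members and no more.

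Irradiation of KO cells gave 2 calls, Hist1h1c and Hist1h3i, both lower. The share of all genes called was 21.1% higher and 18.6% lower, and the median change of the 17 was -1.43 (all genes 0.02), with 15 below 0. Under the replicate block 0 were higher and 13 lower, with 30.6% and 29.6% of all genes called. The 4 members outside the 13 were Hist1h2bc, Hist1h2be, Hist1h2bg and Hist3h2a. Of the 13, the KO groups overlapped for Hist1h1d, Hist1h1e, Hist1h2bn, Hist1h3c, Hist1h4d and Hist1h4j, and not for the rest. Without replicate 2 of unirradiated KO, the log2 change was 1.34 for Hist1h4d and 0.25 for Hist1h2bn. The block takes 1 shift between replicates for all groups. Summed over the 55 genes outside the 4 with most reads, replicate 2 was 1.36 and 3.39 times replicate 1 in unirradiated WT and KO. In irradiated WT and KO it was 0.792 and 0.702 times.

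Between the lines without irradiation, KO was lower in Hist1h4i and Hist2h2be and higher in 0 of the 17, against 10.4% of all genes higher and 9.49% lower. The median change was 0.77, with 11 above 0, while that of all genes was -0.01. The replicate block called 4 members higher (Hist1h1b, Hist1h4j, Hist1h3c and Hist1h3i; all genes 21.4%) and 3 lower (all genes 23.5%). Each of these 4 was highest in replicate 2 of unirradiated KO.

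After irradiation KO exceeded WT in Hist1h1c and Hist1h2bc and lay below it in Hist2h2be, while 13.3% of all genes were called higher and 11.4% lower. The median change was 0.78 (all genes -0.01). The block called 4 higher, adding Hist1h4i and Hist1h3i, and 3 lower, adding Hist1h2be and Hist3h2a, with 25.2% of all genes in either direction. The comparisons share libraries, so their calls are not independent of each other.

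The irradiation effect itself differed between the lines for Hist1h1c and Hist1h2bc, which fell less in KO. For this interaction 2 of 17 members were called higher and 0 lower, against 1.37% and 0.57% of all genes (8.15% and 8.55% with the replicate block, which called 3 members higher, Hist1h4i being the third).

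**Figure D3:**
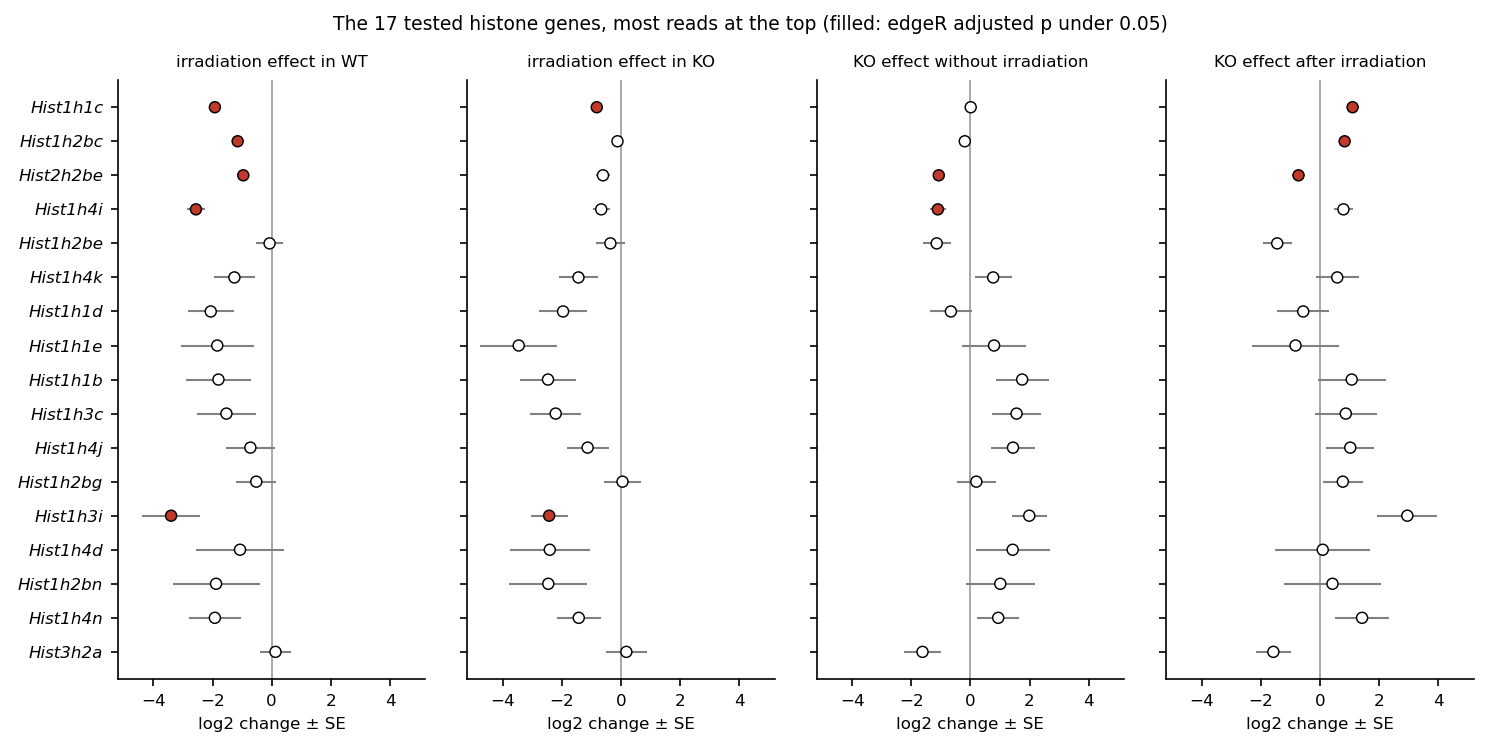
Log2 change with its SE for the 17 tested histone genes in the 4 comparisons between groups, ordered by reads with most reads at the top, filled where the edgeR adjusted p was under 0.05. The SE is 0.1 to 0.3 for the 4 genes at the top and wider for the rest, and in the irradiation panels 16 of 17 genes in WT and 15 of 17 in KO lie left of 0.

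Among the H1 genes, Hist1h1c (chr13:23738808-23740367, plus strand), which encodes a somatic linker histone, had 73.9 and 61 CPM in unirradiated WT, 19.3 and 18 in irradiated WT, 73.6 and 64.1 in unirradiated KO and 42.7 and 36.8 in irradiated KO. The unirradiated libraries of both lines overlapped, and after irradiation KO stayed above WT in both libraries. Its log2 change with irradiation was -1.92 ± 0.14 in WT (SE, edgeR adjusted p = 6.14e-05) and -0.82 ± 0.13 in KO (edgeR adjusted p = 0.002). The difference between these effects was 1.09 ± 0.18 (edgeR adjusted p = 0.0295), and KO exceeded WT after irradiation by 1.11 ± 0.13 (edgeR adjusted p = 0.00104).

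Both the irradiation effects of Hist1h1c and its KO effect after irradiation were called with any 1 of the 8 libraries left out. The interaction was called only when replicate 2 of unirradiated WT was the library left out. In the 7 other fits its edgeR adjusted p was 0.0578 to 0.142.

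The other linker histone genes of somatic cells had few reads. Hist1h1b had 0.237 and 1.58 CPM in unirradiated WT, 0.295 and 0.232 in irradiated WT, 0.911 and 4.98 in unirradiated KO and 0.531 and 0.577 in irradiated KO. Its highest values were in replicate 2 of both unirradiated groups, and the WT groups overlapped. Hist1h1d ran from 0.231 to 2.96 CPM and Hist1h1e from 0.173 to 4.98 CPM, and neither was called by edgeR in any of the 5 comparisons. With the replicate block Hist1h1b, Hist1h1d and Hist1h1e were each called lower with irradiation in both lines, with adjusted p-values of 0.0238, 4.12e-04 and 0.00864 in WT and 8.71e-05, 0.00253 and 1.64e-05 in KO. DESeq2 called Hist1h1e and Hist1h1b lower with irradiation in KO (adjusted p = 0.0123 and 0.0421). In replicate 2 of unirradiated KO Hist1h1e had 99 reads and in replicate 1 it had 3. Hist1h1a had 4 reads in all and the testis-specific gene Hist1h1t 1.

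Of the H2B genes, Hist1h2bc (chr13:23684199-23692908, plus strand) had 42.6 and 38.1 CPM in unirradiated WT, 19.1 and 18.7 in irradiated WT, 33.8 and 37.4 in unirradiated KO and 33.8 and 33.4 in irradiated KO. The irradiated WT libraries stood apart at about the same level, and the KO groups overlapped. Irradiation lowered it in WT by a log2 change of -1.15 ± 0.10 (edgeR adjusted p = 0.000163). In KO the change was -0.12 ± 0.10 (edgeR adjusted p = 0.378). The interaction was 1.03 ± 0.14 (edgeR adjusted p = 0.0127), and KO lay above WT after irradiation by 0.84 ± 0.10 (edgeR adjusted p = 0.00103).

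Leaving out 1 library kept the WT irradiation effect and the KO effect after irradiation of Hist1h2bc in all 8 fits. The interaction stayed called without replicate 2 of unirradiated WT, replicate 1 of irradiated WT or replicate 2 of unirradiated KO. Without any of the other 5 libraries its edgeR adjusted p was 0.0532 to 0.0697, with the log2 value between 0.94 and 1.04.

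Hist2h2be (chr3:96221119-96223738, plus strand) differed from Hist1h2bc in that KO was the lower line in both conditions. It had 27.7 and 24.7 CPM in unirradiated WT, 16.2 and 12 in irradiated WT, 14.1 and 11.3 in unirradiated KO and 9.82 and 7.16 in irradiated KO. Neither the lines nor the conditions overlapped within these pairs of groups. Its log2 change was -0.96 ± 0.21 with irradiation in WT (edgeR adjusted p = 0.00867), -1.07 ± 0.21 in KO without irradiation (edgeR adjusted p = 0.0111) and -0.72 ± 0.21 in KO after it (edgeR adjusted p = 0.0451). The change with irradiation in KO was -0.61 ± 0.22 (edgeR adjusted p = 0.0563, and 1.39e-04 with the replicate block).

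These calls of Hist2h2be did not all hold when a library was left out, while the direction did. The KO effect after irradiation was kept only without replicate 2 of irradiated WT. Without any of the other 7 libraries its edgeR adjusted p was 0.0512 to 0.226 and its log2 change -0.98 to -0.48, and with only the irradiated groups fitted they were 0.0824 and -0.72. The WT irradiation effect was lost without replicate 1 of unirradiated WT (0.0527, log2 change -0.86) or replicate 2 of irradiated WT (0.0539, -0.75). The KO effect without irradiation was lost without replicate 1 of unirradiated WT (0.0661, log2 change -0.97) or replicate 2 of unirradiated KO (0.0715, -0.91).

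The 3 other tested H2B genes were not called in any comparison without the replicate block. Hist1h2be, whose exons overlap those of Hist1h1e, was between 2.23 and 2.85 CPM in the 4 WT libraries and between 0.547 and 1.66 in the 4 KO libraries, so that the lines did not overlap. The edgeR adjusted p of that difference was 0.139 without irradiation and 0.0695 after it, and with the replicate block it was 0.0173 and 0.00285. Hist1h2bn had 0.297 and 0.92 CPM in unirradiated WT, 0.221 and 0.116 in irradiated WT, 0.182 and 2.11 in unirradiated KO and 0.464 and 0 in irradiated KO, with its highest value in the library that stood apart, and the block called it lower with irradiation in KO (edgeR adjusted p = 0.181, and 0.0125 with the block). Hist1h2bg ran from 0.349 to 1.26 CPM, and its groups overlapped in every comparison.

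Among the H4 genes, Hist1h4i (chr13:22040636-22041362, minus strand) had 9.19 and 7.16 CPM in unirradiated WT, 1.55 and 1.34 in irradiated WT, 3.1 and 4.53 in unirradiated KO and 2.85 and 2.14 in irradiated KO. The order of the lines was opposite in the 2 conditions, with KO below WT in both libraries before irradiation and above it in both libraries after it. It fell with irradiation in WT by a log2 change of -2.56 ± 0.30 (edgeR adjusted p = 0.000578). In KO the change was -0.67 ± 0.29 (edgeR adjusted p = 0.106, and 0.0154 with the replicate block).

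The KO effect on Hist1h4i was -1.10 ± 0.28 without irradiation (edgeR adjusted p = 0.0301) and 0.80 ± 0.31 after it (edgeR adjusted p = 0.0997, and 0.0335 with the replicate block). The interaction of 1.90 ± 0.41 had an edgeR adjusted p of 0.0779 (4.29e-04 with the replicate block). Its call between the lines without irradiation was lost without replicate 1 or 2 of unirradiated WT (0.156 and 0.0585) or replicate 1 of unirradiated KO (0.147), and at 0.0503 when only those groups were fitted.

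Hist1h4k, next in level per kb of exon, had 1.42 and 1.58 CPM in unirradiated WT, 1.11 and 0.232 in irradiated WT, 1.64 and 3.42 in unirradiated KO and 1.26 and 0.693 in irradiated KO. Irradiated libraries lay below unirradiated ones in each line, with an edgeR adjusted p of 0.193 in WT and 0.121 in KO (0.0308 and 0.0036 with the replicate block). Hist1h4j ran from 0.174 to 2.31 CPM, Hist1h4d from 0.0593 to 2.36 and Hist1h4n from 0 to 1.28, and none of them was called without the block. With it Hist1h4j, Hist1h4d and Hist1h4n were called lower with irradiation in KO (edgeR adjusted p = 0.0485, 0.0116 and 0.0457), Hist1h4n also in WT (0.0469), and Hist1h4j was called higher in unirradiated KO (0.0257). Hist1h4j and Hist1h4d were highest in replicate 2 of unirradiated KO, and Hist1h4n in replicate 1 of that group. Encoded H4 proteins are the same or nearly so, and 71.5% of the 50-base stretches of Hist1h4k and 85.6% of those of Hist1h4n also occur in other genes, so reads may be split between copies and these values are uncertain.

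The H3 gene Hist1h3i (chr13:21782960-21783370, minus strand) was called on few reads. It had 6 and 7 reads in unirradiated WT, 1 and 0 in irradiated WT, 13 and 41 in unirradiated KO and 4 and 6 in irradiated KO. Both KO libraries without irradiation were the highest, and the irradiated and unirradiated libraries did not overlap in either line. Only unirradiated KO, at 1.18 and 2.06 CPM, brought the gene past the filter on low counts, with at most 0.46 CPM in any other library. A fall from that group was therefore favoured by the filter, and its call in KO is no independent support. In WT the ratio of irradiated to unirradiated level was 0.0802, with a 95% exact interval of 0.00189 to 0.534 that covers counting error only. In KO the ratio was 0.176 (0.0801 to 0.35).

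The fitted log2 changes of Hist1h3i were -3.40 ± 0.97 in WT (edgeR adjusted p = 0.0268) and -2.43 ± 0.62 in KO (edgeR adjusted p = 0.0168), and DESeq2 gave adjusted p-values of 0.0961 and 0.0638. Of its 50-base stretches 87.6% occur in other genes, so its reads may belong in part to other H3 genes. The WT call was also lost when only the WT groups were fitted (edgeR adjusted p = 0.0749). It was lost without replicate 1 or 2 of unirradiated WT (edgeR adjusted p = 0.0614 and 0.0845) or replicate 2 of irradiated WT (0.131). The KO call was lost without replicate 2 of unirradiated KO (0.113) or replicate 1 or 2 of irradiated KO (0.0846 and 0.074). Hist1h3c, the other tested H3 gene, ran from 0.174 to 0.771 CPM in 7 libraries and reached 3.27 in replicate 2 of unirradiated KO. It was called only with the replicate block, lower with irradiation in KO (edgeR adjusted p = 0.00193) and higher in unirradiated KO than in WT (0.0418).

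The H2A genes had few reads in these libraries, which does not show that they were little expressed. The 15 of them summed to 2.14 and 1.84 CPM in unirradiated WT, 1.55 and 0.929 in irradiated WT, 2.19 and 1.91 in unirradiated KO and 1.13 and 0.577 in irradiated KO. Irradiated libraries lay below unirradiated ones in both lines, and replicate 2 of unirradiated KO did not stand apart in this type. The single tested H2A gene was Hist3h2a, at 0.526 to 0.949 CPM in WT and 0.151 to 0.365 in KO. Its lines did not overlap, with an edgeR adjusted p of 0.115 without irradiation and 0.0983 after it (0.0701 and 0.0491 with the replicate block). Its exons overlap Trim17 and an opposite-strand gene, Gm44313, and without a stated strand setting the reads of overlapping genes cannot be told apart.

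**Figure D4:**
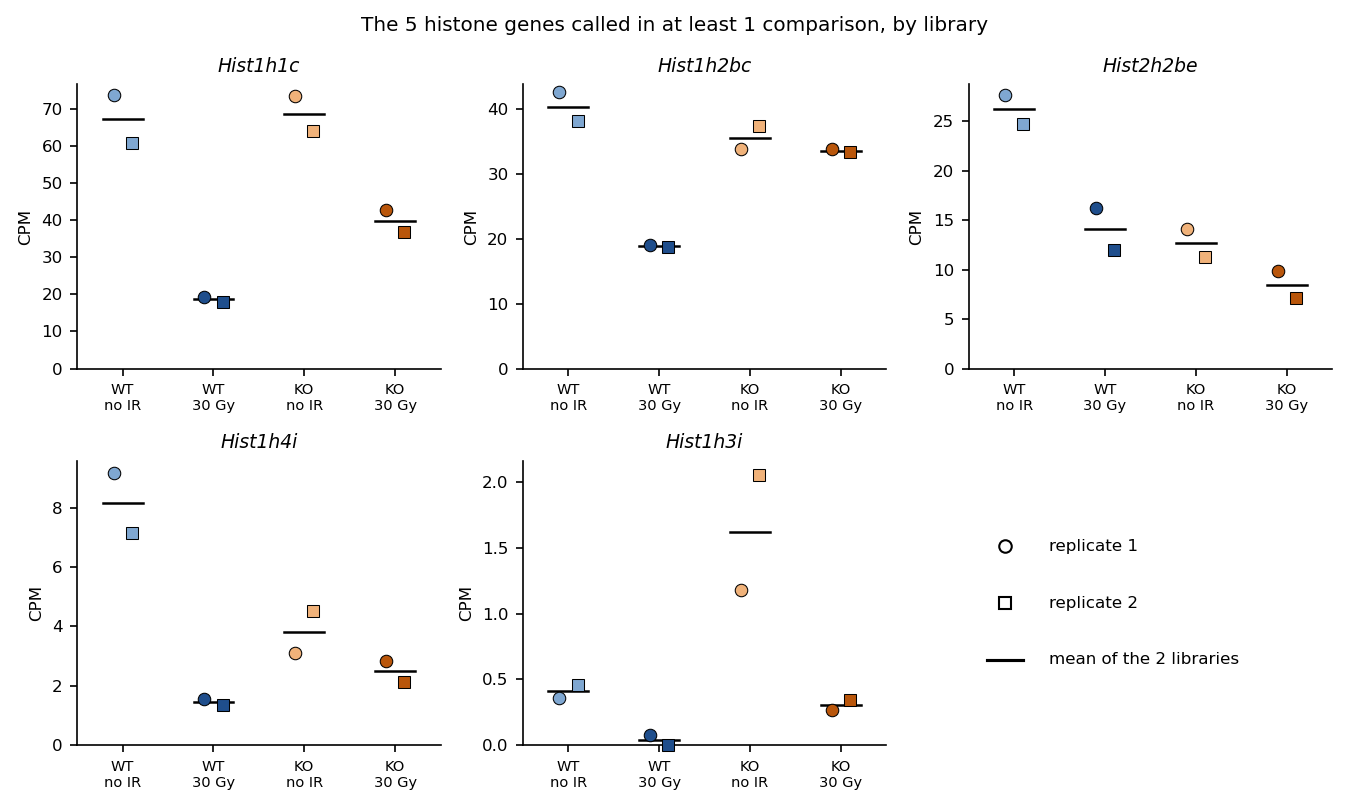
CPM of the 5 histone genes called in at least 1 comparison, with circles for replicate 1, squares for replicate 2 and lines for the mean of 2 libraries. Hist1h1c and Hist1h2bc of irradiated WT lie at 18 to 19.3 CPM, below irradiated KO at 33.4 to 42.7, whereas Hist2h2be is lower in KO than in WT in both conditions.

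Without the 4 genes with most reads, every histone type was at a lower summed level in irradiated than in unirradiated WT, H1 by most. The summed level after irradiation was 0.266 of that before it for the other 5 H1 genes, 0.483 for the other 12 H4 genes, 0.623 for the 10 H3 genes, 0.624 for the 15 H2A genes and 0.699 for the other 13 H2B genes. Between replicates it was 0.461 and 0.182 for H1 and 0.815 and 0.261 for H4, so that leaving out a library moved these values. In KO the same ratios were 0.175, 0.3, 0.269, 0.416 and 0.56 with replicates averaged. Taking replicate 1 of KO alone, they were 0.93, 0.754, 0.637, 0.515 and 1.27. Over the clusters, the ratio in WT without those 4 genes was 0.515 for the distal stretch of Hist1 (0.654 in replicate 1 and 0.416 in replicate 2). For the proximal stretch it was 0.411 (0.608 and 0.267). For Hist2 it was 1.71 in replicate 1 and 0.442 in replicate 2, so that its direction turned between replicates. In KO the ratio was 0.315 (0.97 and 0.181) for the distal and 0.308 (0.671 and 0.145) for the proximal stretch. For Hist2 in KO it was 0.288 (1.04 and 0.157). For the 3 Hist3 genes, at under 1 CPM in every library, the mean ratio in WT was 1.19. It was 0.933 in replicate 1 and 1.66 in replicate 2, so that its direction turned too. In KO it was 1.7, on 4 and 3 reads without irradiation and 8 and 6 after it. Most Hist3 reads were of Hist3h2a, with log2 changes of 0.13 ± 0.54 in WT and 0.18 ± 0.69 in KO (edgeR adjusted p = 0.876 and 0.865). No test was made of these sums.

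Of the 42 members below the filter, 14 had at least 10 reads in a library, and for each of the 14 that library was replicate 2 of unirradiated KO. They were the H4 genes Hist2h4, Hist1h4c, Hist1h4f, Hist4h4 and Hist1h4a, the H3 genes Hist2h3c2, Hist1h3h, Hist1h3d, Hist1h3g, Hist1h3b, Hist1h3e and Hist1h3a, and the H2B genes Hist1h2bb and Hist1h2bl. Replicate 2 of unirradiated KO had the most total counts of all libraries (19887180) and its partner the fewest (10971004). A cutoff in reads favoured it, so that finding these 14 there is in part a result of the choice. Hist2h4 had 49 reads there (2.46 CPM) and 0 to 6 in the other libraries (0 to 0.443 CPM). Hist1h4f had 23 there (1.16 CPM) and 0 to 3 elsewhere (0 to 0.197 CPM). Hist4h4 had 18 there (0.905 CPM) and 0 to 2 elsewhere (0 to 0.131 CPM). Hist1h4c had 6 and 38 reads in unirradiated KO, 6 and 4 in irradiated KO and 0 to 2 in the 4 WT libraries, so that the lines did not overlap. With no filter on low counts, Hist2h4, Hist4h4, Hist1h4f, Hist1h4c and Hist1h2bb were called lower with irradiation in KO (edgeR adjusted p = 0.00111 to 0.0419). Hist1h4c, Hist2h4 and Hist1h2bb were also called higher in KO without irradiation (edgeR adjusted p = 1.73e-04 to 0.0282). Each had most of its reads in replicate 2 of unirradiated KO. The other 28 members had under 10 reads in every library. Without the filter 1 of them was called, Hist1h2ae, with 8 and 4 reads in unirradiated and 0 and 0 in irradiated WT (edgeR adjusted p = 0.0148).

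The genes for processing and decay of the stem-loop mRNAs moved little in size. Of the 27 tested, 1 rose and 11 fell with irradiation in WT, and 3 rose and 11 fell in KO (4 and 16, and 5 and 17, with the replicate block). Of all tested genes 20.4% rose and 18.4% fell in WT, and 21.1% and 18.6% in KO. With the block these shares were 30.6% and 29.9% in WT and 30.6% and 29.6% in KO. The median log2 changes were -0.23 and -0.26. Slbp, the stem-loop binding protein, was at 104 and 92.7 CPM in unirradiated WT, 94 and 83.5 in irradiated WT, 85.7 and 80.7 in unirradiated KO and 77.3 and 70.9 in irradiated KO. Its log2 change with irradiation was -0.21 ± 0.10 in WT (edgeR adjusted p = 0.122) and -0.20 ± 0.10 in KO (edgeR adjusted p = 0.14), and with the replicate block the adjusted p was 0.0007 and 0.00126.

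Only Tut7, a terminal uridylyl transferase that marks histone mRNA for decay, reached a log2 change of 1 in that list, at 1.00 ± 0.07 with irradiation in KO (edgeR adjusted p = 4.53e-05). Between the lines 1 gene of the list was higher and 0 lower without irradiation, and 5 were higher and 4 lower after it (6 and 9, and 9 and 9, with the replicate block). Of all tested genes 10.4% were higher and 9.49% lower without irradiation, and 13.3% and 11.4% after it. With the block these shares were 21.4% and 23.5% without irradiation and 25.2% in either direction after it.

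Among 19 genes of histone gene transcription and cell cycle drive, 3 rose and 5 fell with irradiation in WT, and 2 rose and 5 fell in KO (7 and 7, and 6 and 7, with the replicate block). The shares of all tested genes were 20.4% and 18.4% in WT and 21.1% and 18.6% in KO. Under the block they were 30.6% and 29.9%, and 30.6% and 29.6%. Npat, the coactivator that cyclin E and Cdk2 switch on at the histone clusters, lay between 66.2 and 93.7 CPM and changed with irradiation by 0.19 ± 0.07 in WT (edgeR adjusted p = 0.0586) and 0.13 ± 0.07 in KO (edgeR adjusted p = 0.163), with 0.00254 and 0.0357 under the block. Casp8ap2 (FLASH), which joins both processes, stood at 48.2 to 55 CPM in all libraries. The cyclin E gene Ccne1 fell in both lines, from 14.6 and 15.6 to 5.53 and 4.18 CPM in WT and from 13.7 and 14.2 to 3.58 and 4.44 in KO, which is -1.70 ± 0.18 (edgeR adjusted p = 4.05e-04) and -1.83 ± 0.19 (edgeR adjusted p = 2.72e-04). Cdkn1a, an inhibitor of these kinases, was higher in KO than in WT both without irradiation, by 0.88 ± 0.08 (edgeR adjusted p = 3.69e-04), and after it, by 1.18 ± 0.08 (edgeR adjusted p = 5.13e-05). Its interaction was 0.31 ± 0.11 (edgeR adjusted p = 0.282, and 8.29e-04 with the block). Between the lines 3 genes of the list were higher and 2 lower without irradiation, and 2 higher and 4 lower after it (4 and 7 in both with the block). For all tested genes the shares were 10.4% and 9.49% without irradiation, and 13.3% and 11.4% after it. Under the block they were 21.4% and 23.5%, and 25.2% in either direction.

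Of 30 genes of S phase, 5 rose and 7 fell with irradiation in WT and 5 rose and 12 fell in KO (8 and 12, and 6 and 16, with the block). The shares of all tested genes were 20.4% and 18.4% in WT and 21.1% and 18.6% in KO. Under the block they were 30.6% and 29.9%, and 30.6% and 29.6%. Thymidine kinase Tk1 fell by 1.36 on the log2 scale in WT (SE 0.07, edgeR adjusted p = 1.84e-05) and by 1.69 in KO (SE 0.07, edgeR adjusted p = 3.35e-06), and the ribonucleotide reductase gene Rrm2 by 1.00 in KO (SE 0.08, edgeR adjusted p = 9.77e-05). Rrm2 was also lower in irradiated WT, with a log2 change of -0.85 ± 0.08 (edgeR adjusted p = 2.44e-04). Its interaction was -0.15 ± 0.12 (edgeR adjusted p = 0.712, and 0.0814 with the block). Gins3, of the replicative helicase, rose in KO by 1.07 ± 0.14 (edgeR adjusted p = 9.19e-04) and in WT by 0.42 ± 0.14 (0.0472). The interaction of Gins3 was 0.65 ± 0.2 (edgeR adjusted p = 0.205, and 6.2e-04 with the block). The KO line was lower in 17 and higher in 1 of the 30 without irradiation, and lower in 16 and higher in 2 after it. Of all tested genes 9.49% were lower and 10.4% higher without irradiation, and 11.4% and 13.3% after it. After irradiation Mcm4 (-1.24 ± 0.07, edgeR adjusted p = 2.93e-05) and Uhrf1 (-1.02 ± 0.09, edgeR adjusted p = 2.14e-04) passed a log2 change of 1 in size. Under the block 23 were lower and 2 higher without irradiation, and 21 lower and 5 higher after it. That fit called 23.5% of all genes lower and 21.4% higher without irradiation, and 25.2% in either direction after it.

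Histone chaperones, which carry histones to and from DNA, were lower in KO for 8 of 25 genes without irradiation and 9 after it, with 2 higher each time (15 lower and 5 higher, and 16 and 2, with the block). For all tested genes 9.49% were lower and 10.4% higher without irradiation, and 11.4% and 13.3% after it. Under the block these shares were 23.5% and 21.4%, and 25.2% in either direction. With irradiation 4 rose and 6 fell in WT, and 3 rose and 8 fell in KO (7 and 14, and 4 and 13, with the block). The shares of all tested genes were 20.4% and 18.4% in WT and 21.1% and 18.6% in KO. Under the block they were 30.6% and 29.9%, and 30.6% and 29.6%. The H2A.Z chaperone Anp32e fell by 1.34 on the log2 scale in WT (SE 0.17, edgeR adjusted p = 8.43e-04) and by 1.44 in KO (SE 0.17, edgeR adjusted p = 5.76e-04). Daxx, the H3.3 chaperone, was at 41.2 and 41.1 CPM in unirradiated WT, 71.5 and 62.4 in irradiated WT, 37.9 and 39.5 in unirradiated KO and 317 and 314 in irradiated KO. Its rise in KO was 2.99 ± 0.09 (edgeR adjusted p = 8.23e-07), and the interaction 2.35 ± 0.12 (edgeR adjusted p = 3.98e-04).

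The replication-independent variant genes, whose mRNAs are mostly polyadenylated, were the closest comparison to the members with most reads. Of 11 tested, 1 rose and 5 fell with irradiation in WT, and 1 rose and 4 fell in KO, with medians of -0.75 and -0.72 (3 and 8, and 1 and 9, with the block). The shares of all tested genes were 20.4% and 18.4% in WT and 21.1% and 18.6% in KO. Under the block they were 30.6% and 29.9%, and 30.6% and 29.6%. The linker variant H1f0 went from 1540 and 1200 to 378 and 287 CPM in WT and from 1870 and 1460 to 449 and 378 in KO. Its changes of -2.11 ± 0.19 (edgeR adjusted p = 1.91e-04) and -2.05 ± 0.19 (edgeR adjusted p = 1.78e-04) differed by 0.06 ± 0.26 (interaction, edgeR adjusted p = 0.979), and those of Hist1h1c by 1.09.

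H3f3b, one of the H3.3 genes, fell by 1.46 on the log2 scale in WT (SE 0.24, edgeR adjusted p = 0.00267) and by 1.27 in KO (SE 0.24, edgeR adjusted p = 0.00465), from 1900 and 1390 to 717 and 532 CPM and from 1510 and 1120 to 648 and 469. H3f3a, the other H3.3 gene, was at 72 and 79.2 CPM before and 89.2 and 114 after irradiation in WT and at 68.2 and 95.5, then 79.4 and 94.2, in KO. It was not called without the block, which called it higher with irradiation in WT (edgeR adjusted p = 0.152, and 2.64e-06 with the block) and lower in KO than in WT after irradiation (0.459 and 0.00329). H2afx, whose protein is phosphorylated at DNA breaks, fell in WT by 1.01 (SE 0.31, edgeR adjusted p = 0.0334) and was lower in unirradiated KO than in WT by a log2 change of -1.13 ± 0.31 (edgeR adjusted p = 0.0389). Its changes with irradiation in KO and in KO against WT after irradiation were called only with the block (edgeR adjusted p = 0.115 and 0.098 without it, 1.53e-10 and 1.78e-12 with it). H2afz had 698 and 385 CPM in unirradiated WT, 438 and 247 in irradiated WT, 496 and 272 in unirradiated KO and 303 and 173 in irradiated KO. Replicate 1 exceeded replicate 2 in every group by more than irradiation changed it, and the change was not called without the block (WT edgeR adjusted p = 0.221, KO 0.23) and called with it (3.4e-19 and 5.71e-19). The macroH2A gene H2afy2 fell in WT by 1.11 (SE 0.10, edgeR adjusted p = 1.63e-04) and in KO by 1.33 (SE 0.10, edgeR adjusted p = 7.4e-05), and KO lay below WT after irradiation by a log2 change of -1.09 ± 0.10 (edgeR adjusted p = 3.32e-04).

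Between the lines 0 variant genes were higher and 2 lower in each condition (1 and 6, and 1 and 7, with the block). For all tested genes the shares were 10.4% and 9.49% without irradiation, and 13.3% and 11.4% after it. Under the block they were 21.4% and 23.5%, and 25.2% in either direction. The interaction was called higher for 1.37% of all tested genes and lower for 0.57% (8.15% and 8.55% with the block). The interaction was called for 3 genes of stem-loop processing, 1 of transcription and cell cycle drive, 1 chaperone, 0 variants and 3 S phase genes, 1 of them higher and 2 lower, against 4 and 1 higher and lower, 2 and 3, 2 and 7, 2 and 2, and 3 and 9 with the block.

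**Figure D5:**
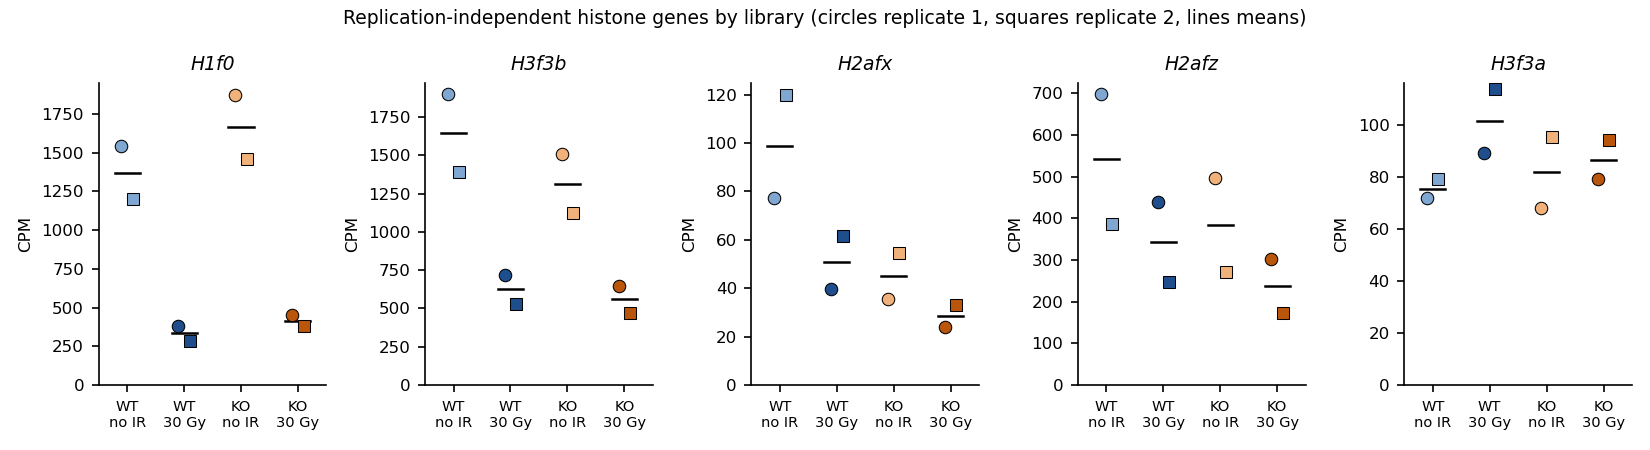
CPM of 5 replication-independent histone genes by library, with circles for replicate 1, squares for replicate 2 and lines for group means. H1f0 and H3f3b are lower in the irradiated groups of both lines, and H2afz is higher in replicate 1 than in replicate 2 of every group.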

How the data were processed

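The authors deposited raw counts, as whole numbers without normalization, for each Ensembl gene in 8 libraries. HISAT2, HISAT, HTSeq and DESeq2, without versions, and the build mm10 are named in the submitters' processing notes. The annotation release used for counting, the strand setting, the library kit and the treatment of multi-mapping reads are not given in the sources at hand, so counts of near-identical histone genes may be split or lost. The members, gene lists and tests were chosen with earlier results of these data known.

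The fit used edgeR 4.0.16 under R 4.3.3. The filter was filterByExpr at a minimum count of 10 and a minimum total of 15, which 14923 genes passed. TMM scaling factors lay between 0.975 and 1.024. All 8 libraries entered 1 fit with a coefficient per group (common dispersion 0.0199, with 4 residual degrees of freedom). The test was the quasi-likelihood F test, two-sided, with Benjamini-Hochberg adjustment over all 14923 genes. Calls are adjusted p-values under 0.05, and SE is derived from the F statistic. The interaction subtracts the irradiation effect of WT from that of KO. CPM is per M of all counts. With no molecular identifiers, intervals and floors describe counting error alone.

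Replicate numbers come from the sample titles. Deviations of same-numbered libraries from their group means correlated at 0.564 to 0.611 over all 6 pairs of groups, so the numbers were taken to pair the libraries, and a fit with the replicate number as a block is given where it changed a member's call or a list's count. Other alternatives were DESeq2 1.42.0 (its own test, or its size factors in edgeR), no scaling, no filter, only the groups compared, and leaving out each library.

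Every tested member is named. Members called in a comparison and the 8 with the highest CPM per kb of exon are given in every library, and untested members with at least 10 reads in a library are named. In the other lists, 8 anchor genes (Slbp, Npat, Casp8ap2, H2afz, H2afx, H3f3a, H3f3b and H1f0) and called genes with an absolute log2 change of at least 1 are named, and markers of other cell types are given by their sums. The fit was tested on simulated data. Stem-loops, poly(A) signals and shared 50-base stretches were read from GENCODE M21 transcripts, and promoters from RefSeq (GRCm38.p6).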

Additional observations from a re-analysis of the deposited data

Results flagged for a closer look

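The response to irradiation differed between the lines for 2 histone genes. For Hist1h1c the change in KO minus that in WT was 1.09 on the log2 scale (edgeR adjusted p = 0.0295), and for Hist1h2bc it was 1.03 (edgeR adjusted p = 0.0127), each from 2 libraries a group. Both genes were lower in both irradiated than in both unirradiated WT libraries, and higher in both irradiated KO libraries than in both irradiated WT libraries. With 1 library left out in turn the call was lost in 7 of 8 fits for Hist1h1c and in 5 of 8 for Hist1h2bc, at log2 values of 0.94 to 1.23 and 0.94 to 1.12 over the 8 fits. For Hist1h4i all KO libraries lay below all WT libraries without irradiation and above them after it. That opposite order was noted without a test of its own, and the interaction of 1.9 on the log2 scale had an edgeR adjusted p of 0.0779.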

How the results depend on the processing

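The calls rest on 2 libraries a group and, outside 4 genes, on few reads, and how far depth or the spread between replicates limits them was not tested. The 14 called log2 changes kept their direction under every alternative run. Leaving out 1 library at a time, the number of members called lower with irradiation ranged from 3 to 6 in WT and from 1 to 6 in KO. In KO against WT it ranged from 0 to 2 lower and 0 to 1 higher without irradiation, and from 0 to 1 lower after it, and the interaction calls ranged from 0 to 2. With the replicate block, 10 and 13 members were lower with irradiation in WT and KO, 4 were higher in KO in each condition, and 3 were lower after irradiation. The block ended no call. Among the tested members it changed only the calls given beside the results. Without the filter on low counts, 9 and 15 were lower with irradiation in WT and KO, 6 were higher in KO without irradiation and 2 lower after it. The share of all genes called is not given for the fit without the filter, for those without 1 library or for those of only the compared groups. Their counts cannot be set against it, and say nothing particular to the histone genes. The untested members called in KO without the filter had most of their reads in replicate 2 of unirradiated KO. With only the compared groups in the fit, 1 was lower in KO without irradiation, and Hist1h3i in WT (adjusted p = 0.0749) and Hist2h2be in KO after irradiation (0.0824) were no longer called. The summed ratio was 0.473 in WT without Hist1h1c, and without the 4 genes with most reads, a choice made after seeing the data, 0.519 in WT and 0.317 in KO. For the other 55 genes in KO it ranged from 0.205 to 0.696 without 1 library. Near 0, the change of Hist1h1c in KO without irradiation ranged from -0.12 to 0.17, and the interaction of Hist1h3i, with 1 read in irradiated WT, from -0.03 to 3.34. The cause was not tested. Over all tested members and alternatives there were 52 sign changes of uncalled values, 18 of them without replicate 2 of unirradiated KO. The same value could change sign under several alternatives, so fewer values than 52 were affected.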
